A study of Homo sapiens with 12 samples.

Results

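The replication-dependent histone genes sit in clusters named HIST1 to HIST4, and 49 loci of the expression table carried at least 1 of them. A locus was taken as a member when a gene name on its row matched a HIST1 to HIST4 name of an H1, H2A, H2B, H3 or H4 gene, pseudogene names were passed over, and its value was above 0 in at least 2 of the 12 columns. The table held 57908 loci, of which 65 had such a name, and these 65 covered 74 histone genes. The 49 members covered 58 histone genes. Of the 16 loci that were not members, 12 were listed at 0 in every column and 4 were above 0 in 1 column: HIST1H2BB (0.697 FPKM in control replicate 2), HIST1H1D (0.134), HIST1H3G (0.0760) and HIST1H1B (0.264), the last 3 in control doxorubicin replicate 2. The 5 members just inside the rule, above 0 in 2 columns, were the locus with HIST2H2BB, HIST1H4A, HIST1H4F, HIST1H1A and HIST1H2BG. Both columns with HIST1H4F belonged to SMC5 cells with doxorubicin, so HIST1H4F was seen in 1 sample.

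HCT116 is a human colorectal cancer cell line. Cells were transfected with a control plasmid (labelled GFP in the sample names and vector in the design text), with NSE4A-flag (labelled NSE4) or with SMC5-flag (labelled SMC5). NSE4A and SMC5 are subunits of the SMC5/6 complex, a chromosome-maintenance complex that works in DNA repair and replication. Part of the cells of each transfection received 1000 nM doxorubicin, a topoisomerase II poison that breaks DNA, for 24 hours, and the other part received PBS. All cells shared the same line, medium and transfection step, and the parental genotype was given as wild type. This made 6 groups: GFP, NSE4 and SMC5 with PBS, and GFP, NSE4 and SMC5 with doxorubicin, with 2 libraries each. The genes on the plasmids were high in the libraries labelled for them: NSMCE4A, the gene for NSE4A, was at 4069 to 6287 FPKM in the 4 NSE4 samples against 32.6 to 89.4 elsewhere, and SMC5 was at 811 to 979 FPKM in the 3 SMC5 samples against 7.02 to 34.4 elsewhere.

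FPKM (fragments per kilobase of transcript, scaled to the number of fragments sequenced) is a level per length, so levels can be set side by side between genes. The 2 SMC5 doxorubicin columns correlated at r = 0.9984 across loci and had 1091 identical values above 0, whereas the other 5 groups had none, and they were averaged and counted as 1 sample. This left 11 samples, 6 with PBS and 5 with doxorubicin. The labels do not say whether the libraries of a group stem from separate cultures, and the spread between them, which the p-values measure, may be technical. The depth, estimated from the step between low values, was roughly 13900000 to 21100000 fragments per library, and 1 fragment in HIST1H3B, whose annotated transcript has 411 bases, was worth at least 0.115 to 0.176 FPKM. At members with values near that step a level rests on a few fragments. The single locus with the mitochondrial gene MT-ATP6 held between 16.6 and 33.0% of a sample's FPKM. Epithelial markers summed to 3673 to 4715 FPKM per sample over 7 loci. The leukocyte markers summed to 0.0953 to 0.905 FPKM and the endothelial markers to 0.0674 to 0.331 FPKM, while the fibroblast markers summed to 15.6 to 27.1 FPKM, most of it COL1A1. For all 3 of these lists the ranges with and without doxorubicin overlapped.

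Histones H2A, H2B, H3 and H4 form the octamer around which DNA is wrapped, and H1 binds the linker between octamers. Cells make the replication-dependent forms chiefly in S phase, when new chromatin is assembled, and their messenger RNAs end in a conserved stem-loop in place of a poly(A) tail. The stem-loop is bound by SLBP and decides how the transcript is cut, exported, translated and, when DNA synthesis stops, degraded. Genes of the same clusters can also give transcripts that run past the stem-loop to a polyadenylation site, which is known from differentiated cells. Replication-independent variants such as H3.3 and H2A.Z come from genes outside these clusters, with ordinary polyadenylated transcripts.

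The stem-loop is the feature that sets these messages apart, and it was read from the GENCODE 29 transcripts for loci called with doxorubicin and for HIST1H4J, the H4 locus of highest level, which was not called. In the lines that follow the capitals mark the 16 bases that match the histone 3′ stem-loop pattern on the sense strand, with up to 7 bases on each side, written 5′ to 3′.
HIST3H2A: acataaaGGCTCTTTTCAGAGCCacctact
HIST1H2AG: aaccaacGGCTCTTTTCAGGGCCacccacg
HIST1H4I: ctaaaaaGGCCCTTTTTAGGGCCcctaagc
HIST2H4A: tcccaaaGGCCCTTTTTAGGGCCgaccact
HIST2H2BC: ctccaaaGGCTCTTTTCAGGGCCatttaac
HIST2H2BE: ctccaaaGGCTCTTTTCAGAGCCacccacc
HIST1H2BC: ccccaaaGGCTCTTTTAAGAGCCacccaga
HIST1H3E: atccaaaGGCTCTTCTCAGAGCCaaccact
HIST1H4J: aataaaaGGCCCTTTTCAGGGCCacccta
Across the members 29 of 58 histone genes had a match in an annotated transcript. In all of GENCODE 185 genes had a match, 34 of them histone cluster genes. Counted by transcript and not by gene, 0.188% of all GENCODE transcripts had one. Of the 29 genes, 14 had the letters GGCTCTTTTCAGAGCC, shared by H2A, H2B and H3 genes. The H4 genes had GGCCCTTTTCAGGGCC (5 genes, HIST1H4J among them) or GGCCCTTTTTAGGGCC (3 genes, HIST1H4I and HIST2H4A among them). HIST1H3E was the only member gene with GGCTCTTCTCAGAGCC. For the other 29 genes no annotated transcript held the pattern, which says only that these letters are not in the transcripts as annotated.

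The annotated end of a transcript differed between members. At 20 loci a transcript ran at least 100 bases past the stem-loop, as for HIST3H2A (390 bases), HIST1H2AC (1128), HIST2H2BE (1729), HIST1H2AG (1761) and HIST1H3E (1862). At 6 loci it ended near the stem-loop, as for HIST1H4J (6 bases) and HIST2H2AA3 (35), and at 23 loci no stem-loop was annotated. The median of the mean FPKM was 2.03 for the 20 loci, 0.779 for the 6 and 0.620 for the 23, with ranges that overlapped (0.0218 to 34.9, 0.0974 to 14.4 and 0.0378 to 34.1). The annotation the authors counted with was not given in the sources used here, so these classes describe GENCODE 29 and not their transcript models.

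The promoters were read from RefSeq (GRCh38.p14), which held 52 of the 58 member genes. Letters were searched on both strands in the 250 bases before the start. TATAAA was in 63.5% of the 52 promoters and in 10.7% of all 35116 RefSeq promoters. CCAAT was in 82.7% against 32.0%, and the octamer ATTTGCAT, which POU2F1 (OCT-1) binds, in 42.3% against 1.63%. The octamer was in 71.4% of 14 H2A and 73.3% of 15 H2B promoters, in 12.5% of 8 H3 promoters and in none of 11 H4 promoters. CCAAT was in every H1, H2A, H2B and H3 promoter and in 18.2% of the H4 promoters. H2A and H2B genes often lie head to head, so that 1 stretch of DNA lies between both starts. The stretches are printed for 2 of the pairs whose loci changed unequally with doxorubicin. That of HIST1H2AG and HIST1H2BJ, where a locus of the pair rose, is printed with them. Capitals mark matches to TATAAA, to CCAAT and to ATTTGCAT, each on either strand, and neighbouring matches can overlap.
HIST3H2A, chr1:228457874-228458102, minus strand, the stretch up to the start of HIST3H2BB: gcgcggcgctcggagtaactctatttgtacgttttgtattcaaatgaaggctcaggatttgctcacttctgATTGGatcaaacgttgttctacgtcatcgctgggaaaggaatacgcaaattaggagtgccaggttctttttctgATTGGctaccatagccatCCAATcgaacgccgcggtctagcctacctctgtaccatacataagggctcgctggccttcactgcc
HIST1H2BC, chr6:26123927-26124171, minus strand, the stretch up to the start of HIST1H2AC: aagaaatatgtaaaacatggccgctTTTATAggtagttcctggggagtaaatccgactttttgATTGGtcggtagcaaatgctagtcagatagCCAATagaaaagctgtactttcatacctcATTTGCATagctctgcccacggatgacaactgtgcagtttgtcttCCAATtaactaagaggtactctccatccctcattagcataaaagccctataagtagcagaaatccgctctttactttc
HIST1H2AG, chr6:27132796-27133042, plus strand, the stretch up to the start of HIST1H2BJ: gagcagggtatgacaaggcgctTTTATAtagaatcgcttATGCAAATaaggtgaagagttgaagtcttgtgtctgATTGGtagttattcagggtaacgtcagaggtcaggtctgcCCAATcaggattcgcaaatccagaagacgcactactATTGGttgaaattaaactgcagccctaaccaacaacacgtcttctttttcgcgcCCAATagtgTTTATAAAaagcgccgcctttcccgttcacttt
The HIST3H2A stretch held 3 CCAAT matches and no TATAAA or octamer. The HIST1H2BC stretch held 1 TATAAA, 3 CCAAT and 1 octamer, and the HIST1H2AG stretch held 3 TATAAA, 4 CCAAT and 1 octamer.

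Most histone cluster loci were low. Summed over the 49 members the level was 168 to 241 FPKM per sample, which is 0.0155 to 0.0229% of the summed FPKM of a sample. The 10 loci of highest mean took 77.2 to 85.2% of the members' sum. Over the 11 samples 6 loci had a mean of at least 10 FPKM, 26 had a mean of at least 1, and 30 were above 0 in every sample. By cluster, 36 loci were HIST1 (chromosome 6), 9 HIST2 and 3 HIST3 (both chromosome 1) and 1 HIST4 (chromosome 12). Some replication-independent histone genes were higher. Over the same samples H3F3B, 1 of the genes for H3.3, had a mean of 1195 FPKM, H3F3A, the other H3.3 gene, 411, and H2AFZ, the gene for H2A.Z, 384. H2AFJ, given further below, was closer to the highest histone cluster loci in GFP cells. Whether the library kit selected poly(A) RNA is not given. Such selection would lower messages that end in a stem-loop, so these levels may not compare like with like.

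**Figure D1:**
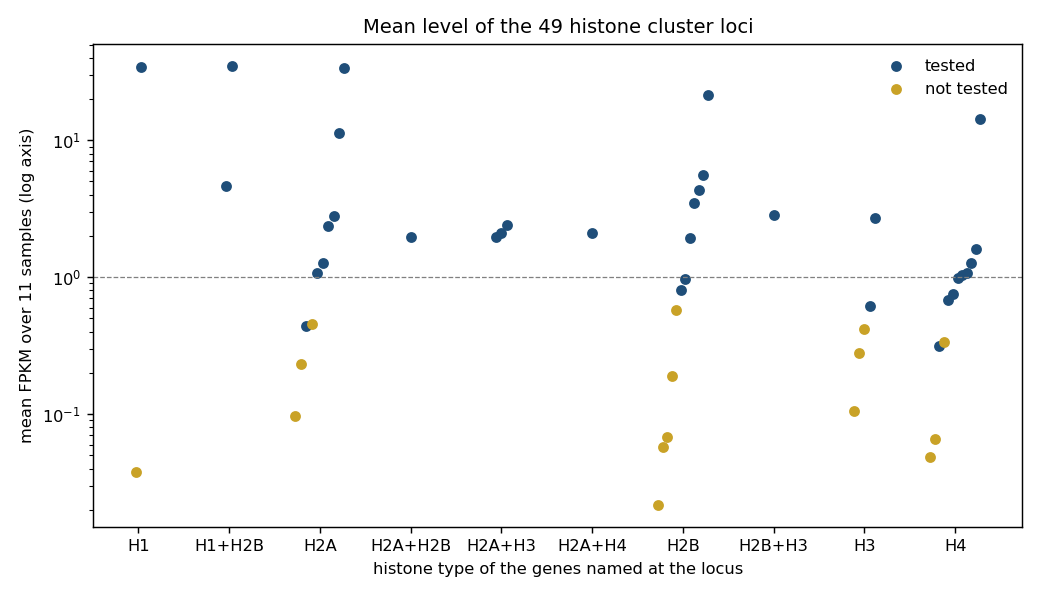
Mean FPKM over the 11 samples (log axis) of each of the 49 loci, by the histone type of the genes named at the locus; dark points were tested and light points were not, and the dashed line is at 1 FPKM. Means run from 0.0218 to 34.9 FPKM, and 6 loci lie above 10.

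A locus can hold more than 1 gene. Of the 49 members 13 named several genes and 8 several histone genes, and such a value cannot be divided between its genes. Near-identical copies add a further limit. Among the 58 genes the median share of 50-base stretches found in no other histone cluster gene was 98.1%, but it was under 50% for 11 genes, with 25.9% for HIST1H2BK, 18.8% for HIST1H4J and 2.46% for HIST2H4A. HIST2H4A and HIST2H4B share an identical transcript, as do HIST2H3A and HIST2H3C, and every 50-base stretch of HIST2H2AA3 is also in HIST2H2AA4. HIST2H2AA4, HIST2H3A and HIST2H3C were listed at 0, which with such copies may be an effect of how reads were assigned and was not tested.

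Among H1 loci, HIST1H1C, the gene for linker histone H1.2, had a mean of 34.1 FPKM. It was at 24.3 and 32.1 FPKM in GFP cells, 36.6 and 32.8 in NSE4 cells and 38.5 and 37.3 in SMC5 cells, and with doxorubicin at 32.6 and 29.3, 32.7 and 38.2, and 40.5. These ranges overlapped. The locus that joins HIST1H1E (H1.4) with the H2B genes HIST1H2BD and HIST1H2BE had the highest mean of all, 34.9 FPKM, at 31.3 to 41.2 with PBS and 26.3 to 39.3 with doxorubicin. HIST1H1A was above 0 in 2 samples, at 0.153 and 0.262 FPKM.

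Of the 10 loci with H2A genes alone, HIST3H2A (33.7 FPKM) and HIST1H2AC (11.4) were the highest and the others lay between 0.0974 and 2.79. Alone means here and below that no histone gene of another type was named. A gene that is not a histone gene could share the locus, as MIR3143 did with HIST1H2AH and OR2B6 with HIST1H2BO. HIST1H2AC was at 10.6 to 13.9 FPKM with PBS and 9.17 to 11.9 with doxorubicin, and these ranges overlapped. Of the 12 loci with H2B genes alone HIST1H2BK led with 21.4 FPKM, at 19.3 to 29.3 with PBS and 16.0 to 26.0 with doxorubicin, again overlapping. HIST2H2BE had a mean of 5.59, the locus with HIST2H2BC, which GENCODE and RefSeq list as a transcribed pseudogene, 4.34, and the locus with HIST1H2BJ 3.49. Loci with H3 genes alone were lower, from 0.106 for HIST1H3C to 2.70 for HIST1H3E. The H4 loci ran from 0.0487 to 1.62 FPKM apart from HIST1H4J, at 14.4.

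Summed by type, the loci with H2A genes alone were at 38.3 to 46.5 FPKM with PBS and 63.9 to 72.5 with doxorubicin, with HIST3H2A as their highest locus. Without HIST3H2A the other 9 summed to 20.2 to 22.9 FPKM with PBS and 16.4 to 20.4 with doxorubicin, which overlapped, so the higher sum with doxorubicin was that of HIST3H2A. The 5 loci with H3 genes alone, of which HIST1H3E was the highest, summed to 4.17 to 6.09 FPKM with PBS and 1.74 to 3.82 with doxorubicin. Doxorubicin was lower, with no overlap. The 3 loci that join H2A and H3 genes went the other way, also without overlap. They summed to 5.00 to 6.46 FPKM with PBS and 6.51 to 8.20 with doxorubicin. Such a value cannot be divided between its H2A and H3 genes, so it gives no direction for the H3 genes. The sums of loci with H2B genes alone (31.3 to 45.0 against 34.7 to 49.1) and with H4 genes alone (18.7 to 22.3 against 14.98 to 34.95) overlapped, as did the sum of all members, at 168 to 207 FPKM with PBS and 196 to 241 with doxorubicin. These sums are descriptions and were not tested.

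The 15 loci that were not tested reached a mean of at most 0.580 FPKM (HIST1H2BF). They were 1 H1, 3 H2A, 5 H2B, 3 H3 and 3 H4 loci. Of the tested loci, HIST1H3B and HIST1H4A reached 1 FPKM only in PBS samples and HIST1H4B and HIST3H2BB only in doxorubicin samples. HIST1H4A was above 0 in 2 samples, at 2.30 FPKM in 1 GFP and 1.16 in 1 SMC5 sample, both with PBS. Between the replicates of a group the median absolute difference of a member was 0.20 to 0.28 on the log2(FPKM + 1) scale in the 5 groups with separate samples, and 0.06 between the averaged SMC5 doxorubicin columns.

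HIST1H4J differed more between the replicates of 1 group than between groups. It was at 19.6 and 6.14 FPKM in GFP cells with doxorubicin, whereas the PBS samples were between 10.5 and 15.6 and the other doxorubicin samples between 15.5 and 20.6. No doxorubicin effect was called at it.

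The question of the design was how the cells responded to doxorubicin and whether NSE4A or SMC5 changed that response. Each locus was tested with limma on log2(FPKM + 1), fitted over 15833 loci with at least 1 FPKM in at least 2 samples, and a locus was called at an adjusted p under 0.05. Of the 49 members 34 were tested and 15 were not. A change on this scale understates that of low loci. FPKM of a pool of cells does not tell apart fewer cells of a cycle phase and less RNA per cell.

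In GFP cells doxorubicin moved 8 of the 34 tested histone loci, 5 up and 3 down, 23.5% of them beside 31.1% of all loci tested (17% rose and 14.1% fell). In NSE4 cells 4 were called, 2 up and 2 down, 11.8% beside 30.2% of all loci (16.3% rose and 13.9% fell). In SMC5 cells 4 were called, also 2 up and 2 down, 11.8% beside 20.9% (11% rose and 9.87% fell). The median change of the 34 was -0.06, 0.06 and 0.06 on the log2(FPKM + 1) scale in GFP, NSE4 and SMC5 cells, and that of all loci 0.02, 0.03 and 0.02. The median standard error of a member was 0.25 in GFP and NSE4 cells and 0.30 in SMC5 cells. Called histone loci therefore went in both directions in every background. Their shares of calls were below those of all loci, but they rest on 34 loci, most of them low, where changes are understated. Whether the shares differ was not tested. Of the 34, 3 loci were called in all 3 backgrounds in the same direction, 8.82% of them beside 17.5% of all loci tested. They were HIST3H2A and the locus with HIST1H2AG and HIST1H4I, which rose, and the locus with HIST1H1T and HIST1H2BC, which fell.

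**Figure D2:**
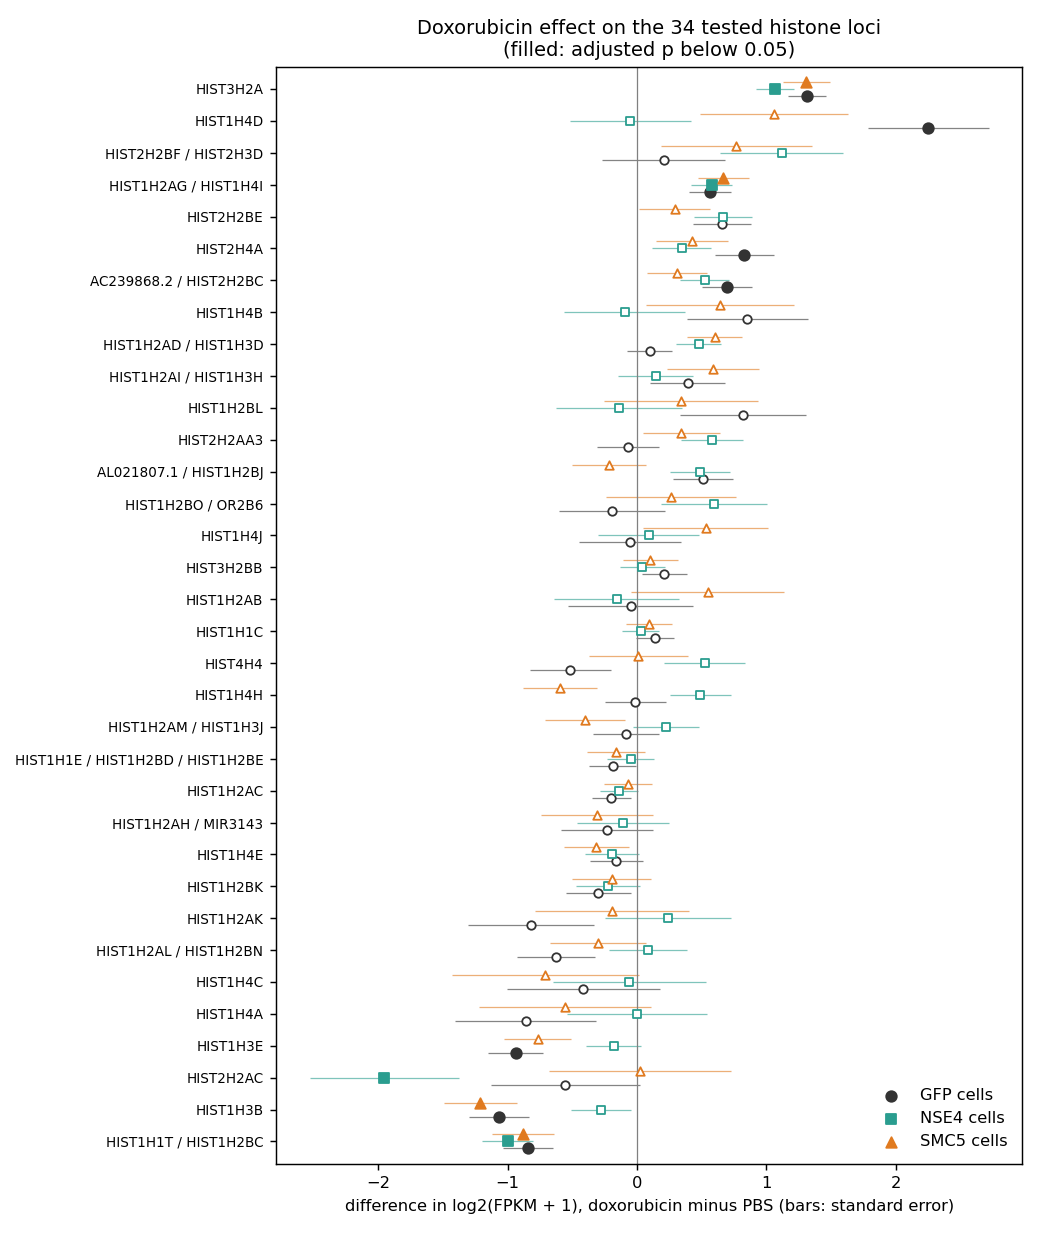
Difference in log2(FPKM + 1) between doxorubicin and PBS for the 34 tested loci in GFP (circles), NSE4 (squares) and SMC5 cells (triangles), ordered by the mean of the 3; bars are standard errors from limma and filled symbols are called. HIST3H2A has filled symbols near 1.31, 1.06 and 1.31, the locus with HIST1H1T and HIST1H2BC has filled symbols near -0.84, -0.999 and -0.88, and most loci in between have open symbols.

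HIST3H2A encodes an H2A of the small HIST3 cluster. With PBS it was at 16.8 and 21.7 FPKM in GFP cells, 21.4 and 23.6 in NSE4 cells and 18.2 and 22.9 in SMC5 cells. With doxorubicin it was at 47.5 and 50.5 in GFP cells, 49.1 and 47.1 in NSE4 cells and 52.1 in SMC5 cells. Every doxorubicin sample was higher than every PBS sample, and the gap between the groups, from 23.6 to 47.1, was wider than the range within either. The mean was 20.8 ± 2.69 (SD, n = 6) with PBS and 49.3 ± 2.10 (SD, n = 5) with doxorubicin, a ratio of 2.37. The limma change was 1.31 (SE 0.15, adjusted p = 0.000519) in GFP cells, 1.06 (SE 0.15, adjusted p = 0.00136) in NSE4 cells and 1.31 (SE 0.18, adjusted p = 0.00231) in SMC5 cells. In SMC5 cells the call was lost when only the 3 samples of that comparison were fitted (adjusted p = 0.114), where 1 residual degree of freedom remains.

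The locus with HIST1H2AG, an H2A gene, and HIST1H4I, an H4 gene, rose from a lower level. It was at 1.75 and 1.37 FPKM in GFP cells, 1.51 and 1.31 in NSE4 cells and 1.71 and 1.48 in SMC5 cells. With doxorubicin it was at 2.62 and 2.92, 2.29 and 2.92, and 3.11 in the same order. No doxorubicin sample overlapped a PBS sample, and the means were 1.52 ± 0.178 (SD, n = 6) and 2.77 ± 0.321 (SD, n = 5). The limma changes were 0.56, 0.58 and 0.67 (adjusted p = 0.0305, 0.0285 and 0.0464). These calls were close to the threshold and were lost under 6, 5 and 7 of 14 alternative settings, with either replicate of GFP, of GFP with doxorubicin, of NSE4 or of SMC5 left out among them.

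The locus with HIST1H1T, a testis H1 gene, and HIST1H2BC, an H2B gene, fell. It was at 5.94 and 5.74 FPKM in GFP cells, 6.64 and 5.55 in NSE4 cells and 5.58 and 7.97 in SMC5 cells, against 3.41 and 2.31, 2.72 and 2.37, and 3.17 with doxorubicin. The groups did not overlap, and the means were 6.24 ± 0.939 (SD, n = 6) and 2.80 ± 0.487 (SD, n = 5), a ratio of 0.448. The limma changes were -0.84 (adjusted p = 0.0132), -0.999 (adjusted p = 0.00666) and -0.88 (adjusted p = 0.0343). The call in NSE4 cells held under all 14 alternatives, that in GFP cells was lost under 4 and that in SMC5 cells under 3. Among the latter was SMC5 replicate 2 left out, with a change of -0.66 and an adjusted p of 0.125.

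Other loci were called in 1 or 2 backgrounds, which by itself does not show that the backgrounds differ. HIST2H4A, an H4 gene, was at 0.946 and 0.319 FPKM in GFP cells and at 1.83 and 1.86 with doxorubicin, a limma change of 0.83 (adjusted p = 0.0262). Its PBS samples over all backgrounds, 0.319 to 1.04, lay below its doxorubicin samples, 1.14 to 1.86. HIST2H4B, which shares an identical transcript with HIST2H4A, was at 0 to 0.187 FPKM. The change therefore cannot be credited to HIST2H4A alone. The locus with HIST2H2BC was at 3.13 and 3.30 FPKM in GFP cells and at 6.64 and 5.11 with doxorubicin, a change of 0.70 (adjusted p = 0.0257). In NSE4 and SMC5 cells it had changes of 0.52 and 0.31 (limma adjusted p = 0.0713 and 0.384). Both GFP calls were lost when GFP replicate 2 was left out (0.55 for HIST2H4A and 0.73 for HIST2H2BC, limma adjusted p = 0.141 and 0.0843).

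HIST1H4D, an H4 gene, was listed at 0 in both GFP samples and at 4.10 and 3.43 FPKM in GFP cells with doxorubicin. In NSE4 cells it was at 1.45 and 0 FPKM with PBS and at 1.28 and 0 with doxorubicin, and in SMC5 cells at 0 and 0 with PBS and at 1.09 with doxorubicin. Of its 5 samples at 1 FPKM or more 4 were with doxorubicin. The change in GFP cells was 2.25 (SE 0.47, limma adjusted p = 0.00833) and was called under all 13 alternatives. No fold is given against samples listed at 0, and a 0 in such a table can be a failed estimate. The change in NSE4 cells was -0.05 and differed from that in GFP cells by -2.30 (SE 0.66), which limma did not call over all loci (adjusted p = 1, unadjusted p = 0.00783).

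HIST1H3B, an H3 gene, went the other way. It was at 0.935 and 1.25 FPKM in GFP cells and 1.55 and 1.10 in SMC5 cells, and was listed at 0 in the 3 samples of these backgrounds with doxorubicin. The limma changes were -1.06 (adjusted p = 0.0104) and -1.21 (adjusted p = 0.0204). In NSE4 cells it was at 0.375 and 0.920 FPKM with PBS and 0.376 and 0.309 with doxorubicin, which overlapped. HIST1H3B reached 1 FPKM in 3 samples, all with PBS, and so was tested only through the treatment in which it was high. HIST1H3E, the other tested H3 locus, was at 3.65 and 4.35 FPKM in GFP cells and 1.95 and 1.31 with doxorubicin, a change of -0.94 (limma adjusted p = 0.0123). In SMC5 cells its change was -0.77 (limma adjusted p = 0.0707) and in NSE4 cells -0.18. The GFP calls of both were lost without GFP replicate 2, with a change of -0.95 (limma adjusted p = 0.0622) for HIST1H3B and -0.83 (limma adjusted p = 0.0730) for HIST1H3E.

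HIST2H2AC, an H2A gene, was at 3.22 and 7.11 FPKM in NSE4 cells and at 1.29 and 0 with doxorubicin, a change of -1.95 (SE 0.57, limma adjusted p = 0.0347). Its replicates were wide apart elsewhere too, at 0.910 and 4.18 FPKM in GFP cells with doxorubicin. The call was lost without NSE4 replicate 2 (-1.48, adjusted p = 0.169) and without NSE4 replicate 2 with doxorubicin (-1.35, limma adjusted p = 0.188).

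**Figure D3:**
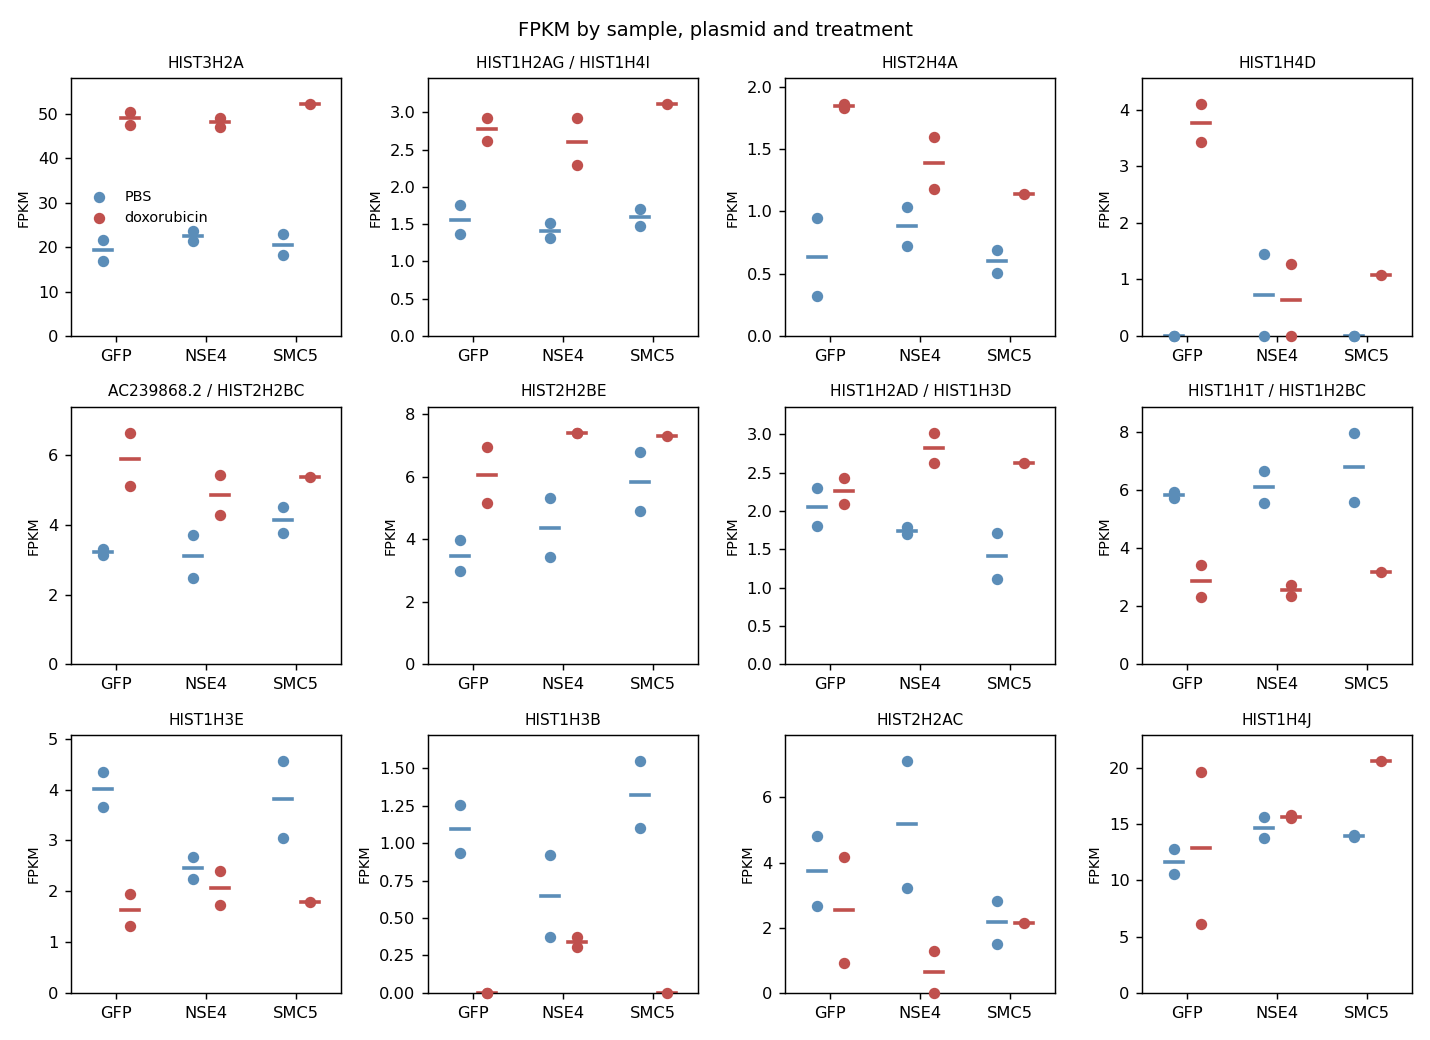
FPKM of each sample (points) and group mean (bars) for the 11 loci called in at least 1 of 10 comparisons and for HIST1H4J, by plasmid, with PBS in blue and doxorubicin in red; SMC5 with doxorubicin is 1 averaged sample, and each vertical axis starts at 0. Red points lie above all blue points for HIST3H2A, HIST1H2AG / HIST1H4I and HIST2H4A and below them for HIST1H1T / HIST1H2BC.

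Averaging the doxorubicin effect over the 3 backgrounds in the same fit, a comparison added after the data were seen, lowers the standard errors (median 0.15 for the members). It called 10 of the 34 loci, 7 up and 3 down, 29.4% beside 51.6% of all loci (28% up and 23.6% down). The 3 that fell were the locus with HIST1H1T and HIST1H2BC (-0.91, limma adjusted p = 0.000413), HIST1H3B (-0.85, 0.00146) and HIST1H3E (-0.63, 0.00443). Those that rose were HIST3H2A (1.23, limma adjusted p = 1.87e-05), the locus with HIST1H2AG and HIST1H4I (0.60, 0.00133), the locus with HIST2H2BC (0.51, 0.00723), HIST2H2BE (0.54, 0.0117), HIST2H4A (0.53, 0.0136), HIST1H4D (1.09, 0.0138) and the locus with HIST1H2AD and HIST1H3D (0.39, 0.0157). The last was named after its values were seen. HIST2H2BE was at 2.98 to 6.78 FPKM with PBS and 5.16 to 7.40 with doxorubicin, and the locus with HIST1H2AD and HIST1H3D at 1.12 to 2.31 and 2.10 to 3.02, so both overlapped between treatments while their means rose by a ratio of 1.50 and 1.47. Each of these 10 calls held under every alternative that tested the locus. The filter of at least 1 FPKM in every sample left out HIST1H3B, HIST2H4A and HIST1H4D, so it could not test them. HIST1H3B had entered the main test only through PBS samples, in which it was high. By a plain count, 4 of the 34 loci (3 higher and 1 lower) had no overlap between the 6 PBS and 5 doxorubicin samples, and 40.6% of all tested loci had none (22% higher and 18.6% lower).

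By type, none of the 7 tested loci with H2B genes alone fell in the averaged comparison while 2 of them rose. These 2 were HIST2H2BE and the locus with HIST2H2BC, the transcribed pseudogene. The latter locus also names AC239868.2, and its value cannot be divided between the 2 genes. Of the 7 loci with H2A genes alone 1 rose, and of the 9 with H4 genes alone 2 rose, with changes of the 9 from -0.47 to 1.09. HIST1H1C, the only tested locus with an H1 gene alone, had a change of 0.09. Of the loci with H3 genes alone 2 were tested, the HIST1H3B and HIST1H3E given above, and HIST1H3B entered the test only through PBS samples. The loci of highest level were mostly not called: of the 6 with means of at least 10 FPKM, HIST3H2A alone was called in any comparison. At least 1 of the 10 comparisons called 11 of the 34 loci, 32.4% beside 53% of all loci tested. Of the 11, 7 were among the 16 tested loci with a transcript annotated past the stem-loop, 4 among the 14 with no annotated stem-loop and 0 among the 4 that end near it.

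Neither NSE4A nor SMC5 changed a histone locus at the threshold. No member was called by limma in NSE4 against GFP cells with PBS (0.0442% of all loci called), in SMC5 against GFP cells with PBS (0%), or in the same comparisons with doxorubicin (0.0568% and 0.0316%). At an unadjusted p under 0.05 there were 3, 2, 2 and 1 members of 34, beside 452, 489, 534 and 476 of all 15833 loci. The tests of whether the doxorubicin effect differed from that in GFP cells also called no member, for NSE4 (0.0316% of all loci called, 4 members at an unadjusted p under 0.05 beside 454 of all loci) or for SMC5 (0.0189%, 0 members beside 440). For HIST3H2A these differences were -0.25 (SE 0.21) and -0.0039 (SE 0.23). The smallest p of a member was that of HIST1H4H, an H4 gene named after its values were seen. Its level was 1.98 ± 0.531 FPKM (SD, n = 2) in GFP cells and 0.395 ± 0.329 (SD, n = 2) in NSE4 cells, a change of -1.10 with an unadjusted p of 0.00140 and a limma adjusted p of 0.714. HIST1H1C was at 28.2 ± 5.46 FPKM (SD, n = 2) in GFP and 37.9 ± 0.839 (SD, n = 2) in SMC5 cells, a change of 0.43 with a limma adjusted p of 1. The median standard error of a member was 0.25 in 3 of the plasmid comparisons and 0.30 for SMC5 against GFP cells with doxorubicin. It was 0.35 and 0.39 for the differences of the doxorubicin effect. Even a change of several standard errors, as for HIST1H4H (-1.10, SE 0.23), was not called over all loci. The lack of calls therefore does not exclude differences well above these errors.

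The members hold 11 head-to-head pairs of genes whose starts are at most 500 bases apart. In 7 pairs of an H2A and an H2B gene, both partners were tested as separate loci, 193 to 247 bases apart, and each pair shares 1 stretch of DNA such as those printed for HIST3H2A, HIST1H2BC and HIST1H2AG. The pair ratio was tested after values of the members were seen, as the H2A minus the H2B locus in log2(FPKM + 1), by an exact two-sided permutation of treatment within each background (108 arrangements, smallest possible p = 0.00926). For HIST3H2A and HIST3H2BB the ratio was 3.26 to 3.71 with PBS and 4.40 to 4.74 with doxorubicin, with no overlap, and the change was 1.11 (exact permutation p = 0.00926, adjusted over the 7 pairs 0.0432). HIST3H2BB itself, named after its values were seen, was at 0.786 to 0.981 FPKM with PBS and 0.931 to 1.30 with doxorubicin, which overlapped, and was not called. For HIST1H2AC and HIST1H2BC the ratio rose by 0.77 (exact permutation p = 0.0185, adjusted 0.0432), from 0.45 to 1.18 with PBS to 1.33 to 1.88 with doxorubicin, without overlap. The HIST1H2AC locus was not called while the HIST1H2BC locus, which also holds HIST1H1T, fell. For HIST2H2AC and HIST2H2BE the ratio fell by 1.36 (exact permutation p = 0.0185, adjusted 0.0432), with ranges of -1.24 to 0.87 and -3.07 to -0.25 that overlapped. The other 4 pairs changed by -0.31 to 0.34 (exact permutation p = 0.194 to 0.963). In 3 of the 7 pairs the loci thus changed unequally at the threshold. Each of these 3 pairs holds a locus called above from the same samples, so the pair test is no separate support for a change. HIST3H2BB entered it only through doxorubicin samples, and the HIST1H2BC value cannot be divided from that of HIST1H1T.

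**Figure D4:**
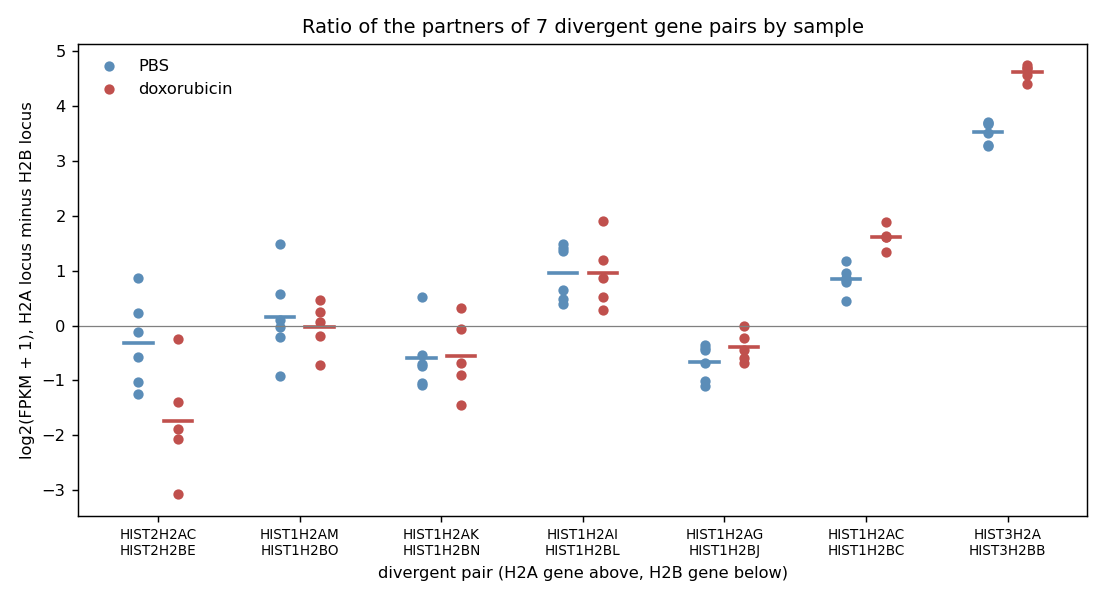
Difference in log2(FPKM + 1) between the H2A and the H2B locus of 7 head-to-head pairs, 1 point per sample, with PBS in blue and doxorubicin in red and bars at the means. The red and blue points do not overlap for HIST3H2A and HIST3H2BB (3.26 to 3.71 against 4.40 to 4.74) or for HIST1H2AC and HIST1H2BC, and they overlap for the other pairs.

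Genes that act on histone genes, messages or proteins, with S-phase genes and replication-independent histones beside them, made up 6 lists. Tested were 9 of 9 symbols for transcription, 12 of 15 for S phase and 10 of 14 for chaperones. For 3′ end processing it was 9 of 13, for turnover and export 7 of 10, and for replication-independent histones 7 of 12. The other symbols, aliases among them, are not counted below. Calls of the listed genes by limma in the averaged comparison stand here beside the 28% of all loci that rose and the 23.6% that fell. Counts by background stand beside 17%, 16.3% and 11% of all loci that rose in GFP, NSE4 and SMC5 cells. The shares that fell were 14.1%, 13.9% and 9.87%. Whether a list differs from all loci was not tested. Of 9 genes for histone gene transcription 7 rose and none fell. They were CCNE2 and CCNE1 (1.69 and 0.25), the cyclins E that start S phase, E2F1 and E2F2 (1.53 and 1.22), transcription factors of S-phase entry, CASP8AP2 (FLASH, 0.53) and NPAT (0.33), proteins of the histone locus body, and HINFP (0.41), a factor that binds H4 promoters. POU2F1, the octamer factor, and CDK2 were not called. CCNE2 was at 4.36 ± 1.53 FPKM (SD, n = 2) in GFP cells and 18.1 ± 1.81 (SD, n = 2) with doxorubicin. By background 6, 4 and 2 of the 9 rose in GFP, NSE4 and SMC5 cells.

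Of 12 S-phase genes 7 rose and none fell. PCNA, the sliding clamp of DNA replication and a known target of p53, changed most, by 2.24, from 105 ± 7.15 FPKM (SD, n = 2) in GFP cells to 488 ± 42.3 (SD, n = 2) with doxorubicin. RRM1 (1.21), a subunit of ribonucleotide reductase, CDC45 (0.84), MCM4 (0.85), MCM5 (0.81) and MCM2 (0.53) of the replicative helicase and TYMS (0.60), which makes dTMP, also rose. By background 2, 3 and 2 of the 12 rose. Of 10 histone chaperones and their partners 4 rose, namely ASF1B (1.47), CHAF1A (1.02), HAT1 (0.59) and ASF1A (0.25), and NAP1L1 fell (-0.23). ASF1B was at 34.3 ± 2.90 FPKM (SD, n = 2) in GFP cells and 98.8 ± 6.12 (SD, n = 2) with doxorubicin, and by background 2, 2 and 1 of the 10 rose.

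Of 9 genes for 3′ end processing 5 rose by smaller amounts: CSTF2T (0.48), CPSF3 (0.36), the endonuclease, CPSF2 (0.31), and the cap-binding subunits NCBP2 (0.28) and NCBP1 (0.26). SLBP, which binds the stem-loop, was at 42.3 ± 0.156 FPKM (SD, n = 2) in GFP cells and 50.3 ± 4.93 (SD, n = 2) with doxorubicin and was not called. By background 4, 2 and 1 of the 9 rose. Of 7 genes for turnover and export 4 fell and none rose. These were CTIF (-0.75) and MIF4GD (-0.53), translation factors that bind at the cap or with SLBP, ZCCHC11 (-0.75), a terminal uridylyltransferase, and ERI1 (-0.70), the exonuclease that trims the stem-loop end. ERI1 was at 18.6 ± 0.150 FPKM (SD, n = 2) in GFP cells and 11.5 ± 0.546 (SD, n = 2) with doxorubicin, and by background 4, 3 and 4 of the 7 fell.

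Replication-independent histones are the nearest comparison, and 3 of the 7 tested rose while none fell. H2AFJ, the gene for the variant H2A.J, changed by 1.62 and was at 40.9 ± 3.70 FPKM (SD, n = 2) in GFP cells and 131 ± 11.3 (SD, n = 2) with doxorubicin. H3F3B (0.67) and H2AFY (0.27), the gene for macroH2A1, also rose, and H2AFZ was not called. By background 2, 1 and 1 of the 7 rose. No tested gene of the 6 lists was called in a plasmid comparison or in a test of a different doxorubicin effect.

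**Figure D5:**
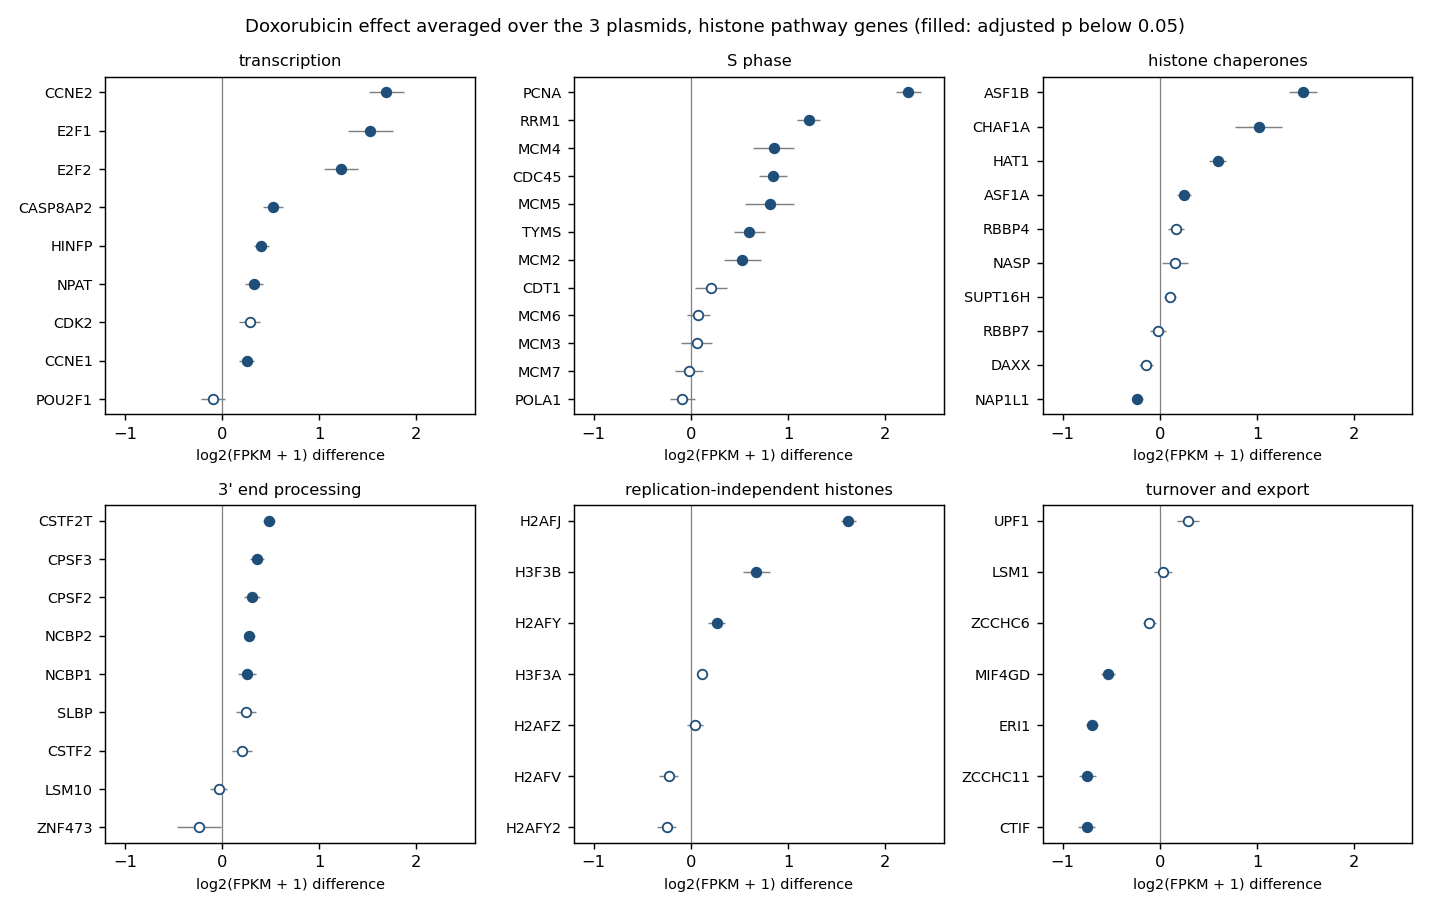
Doxorubicin effect averaged over the 3 plasmids, as a difference in log2(FPKM + 1) with standard error bars from limma, for the tested genes of 6 lists; filled points are called. Points of the transcription and S-phase lists extend to 1.69 and 2.24 on the right, and the 4 filled points of the turnover and export list lie between -0.75 and -0.53.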

How the data were processed

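The histone loci and the pathway lists were chosen with earlier results of these data known. The authors deposited 1 table of FPKM per locus, made with TopHat and Cufflinks per the submitters' processing notes. Versions, genome build, annotation, strandedness and whether the library kit selected poly(A) RNA are not given in the sources used here. Poly(A) selection would lower the share of messages that end in a stem-loop, so levels may not follow the whole histone message pool.

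Values were compared as log2(FPKM + 1) with limma 3.58.1 (R 4.3.3, intensity trend, all 6 groups in 1 fit of 11 samples with 5 residual degrees of freedom) over 15833 loci with at least 1 FPKM in at least 2 samples. P-values were adjusted over all of them by Benjamini and Hochberg within each of 9 planned comparisons and 1 added after the data were seen. The fit was tested on simulated data. Named loci were those called in a planned comparison and the 10 of highest mean; others are said to be named later. Cell type markers were epithelial, leukocyte, fibroblast and endothelial lists. Alternatives were pseudocounts of 0.1 and 5, other filters and scalings, GC adjustment, a replicate block, fits of the compared groups only, 12 separate columns and each replicate left out. Sequences were from RefSeq (GRCh38.p14) and GENCODE 29. Whether the sample numbers pair the samples is not known. Correlations of same-numbered deviations were -0.039 to 0.073 outside SMC5 with doxorubicin and 0.16 to 0.23 with its near-identical columns, and such values cannot settle it. Depth per library was estimated from low values, since the files hold no counts.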

Additional observations from a re-analysis of the deposited data

How the results depend on the processing

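The count of histone loci called with doxorubicin depended on the setting within each background. In GFP cells it was 8 and became 5 when only the compared groups were fitted, and 3 to 6 with a replicate left out. In NSE4 cells it was 4 and became 2 with the filter at above 0 in 2 samples and 2 with the compared groups only, and 2 to 6 with a replicate left out. In SMC5 cells it was 4 and became 2 with that filter and 0 with the compared groups only, where 1 residual degree of freedom remains, and 2 to 4 with a replicate left out. In these fits a lone sample is assumed to vary like the other groups. The averaged effect called 8 to 12 loci, from 10, and no plasmid comparison or difference of effects called any under its 14 to 18 alternatives. No call changed sign. With the replicate number as a block the counts were 8, 4 and 4, as without it, and 10 for the averaged effect. The labels do not say whether the numbers pair the samples. For members under 1 FPKM a few fragments set the value, and 2 libraries a group limit each background's test.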
